A study of Mus musculus with 22 samples.

Results

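The C/EBP transcription factors were followed in nuclei of the mouse hippocampus contralateral to an intracortical injection of kainate. The 5 genes were taken by name from the count table, as Cebpa, Cebpb, Cebpd, Cebpe and Cebpg, out of 53379 genes. The family was selected on its kainate against sham values in these same libraries, so those values are a description. Where a call of a member is given, it states on which side of the threshold the value fell and supports nothing. Male C57/BL6N mice arrived at 8 weeks of age, were housed for 4 weeks, and received 70 nl of 20 mM kainate or 0.9% NaCl (sham) into the cortex over the right hippocampus. The left hippocampi were collected at 24 h; the titles name the left side, although the extraction text of the labels names the right one. Each treatment had 8 mice in 3 pools of 4 or 2 animals, and nuclei of each pool were sorted by an antibody to NeuN, a neuronal nuclear protein. NeuN+ nuclei are called neurons and NeuN- nuclei glia, after the study. By its account NeuN- nuclei may also include cells of vessels and some neurons, as a minor part. The mRNA libraries were 3 of kainate neurons, 3 of sham neurons, 3 of kainate glia and 2 of sham glia.

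C/EBP proteins are basic leucine zipper (bZIP) factors, which bind DNA as dimers with each other or with other bZIP proteins. C/EBP beta and C/EBP delta are known as early responders to cytokines and drive acute-phase genes, and in brain both have been tied to inflammatory gene expression in astrocytes and microglia. C/EBP alpha is known for myeloid and adipose differentiation, C/EBP epsilon for granulocyte maturation, and C/EBP gamma lacks a strong activation domain and acts mostly through its dimer partners.

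The 11 libraries held 12058875 to 45428465 counted reads. Levels are given as CPM, the usual unit of read counts scaled to library size, with TMM factors that correct that size for composition and ranged from 0.7002 to 1.678. The sorted fractions carried their markers: 9 of 10 neuron markers passed the test as higher in NeuN+ nuclei of sham mice, and 10 of 10 microglia and 10 of 10 oligodendrocyte markers as lower. The replicate 1 library had the highest CPM of its group in 4 of 4 groups for Cebpa, Cebpb, Cebpd and Cebpg, and in 3, 3, 3 and 2 groups when library totals were used without TMM factors. Input was low, about 0.05 ng and 15 cycles of PCR, for replicate 2 of kainate glia and replicate 1 of sham glia, while the other libraries had 1 ng and 10 cycles.

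All member IDs and versions matched those of a later GENCODE release on GRCm38 (mm10) than the M16 used for counting. Positions, exon lengths and shared bases were taken from that later release. Cebpb is a single-exon gene on chromosome 2, at 167688915 to 167690418 on the plus strand. Cebpd lies on chromosome 16 at 15887286 to 15891031, also on the plus strand and with its coding transcript in 1 exon. Cebpa, at 35119293 to 35121928 on the plus strand, and Cebpg, at 35046422 to 35056573 on the minus strand, are neighbours on chromosome 7. Cebpe lies on chromosome 14 at 54710360 to 54712174 on the minus strand. In the annotation, 312 exonic bases of Cebpb are shared with Tmem189 on the opposite strand, and 562 of Cebpd with Spidr on the opposite strand. The sources used here do not give a strand setting for the counting, so reads from these shared bases cannot be told apart.

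RefSeq promoters (GRCm38.p6, 250 bases before to 50 after the start site) were matched for 3 of the 5 members. They are shown because the motifs they carry differ between members. Capitals mark TGACG, the core of the site of CREB and ATF factors, CCAAT, and TATAAA, each searched on both strands and so also printed as CGTCA or ATTGG. In these windows the capital runs did not overlap each other.
Cebpb, chr2:167688665-167688964, plus strand: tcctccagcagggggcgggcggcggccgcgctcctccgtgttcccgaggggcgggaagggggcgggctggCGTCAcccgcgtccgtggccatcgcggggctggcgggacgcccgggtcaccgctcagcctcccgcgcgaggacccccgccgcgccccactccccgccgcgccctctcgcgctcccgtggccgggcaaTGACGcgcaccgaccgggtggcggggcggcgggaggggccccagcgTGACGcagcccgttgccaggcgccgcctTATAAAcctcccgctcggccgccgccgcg
Cebpg, chr7:35056517-35056816, minus strand: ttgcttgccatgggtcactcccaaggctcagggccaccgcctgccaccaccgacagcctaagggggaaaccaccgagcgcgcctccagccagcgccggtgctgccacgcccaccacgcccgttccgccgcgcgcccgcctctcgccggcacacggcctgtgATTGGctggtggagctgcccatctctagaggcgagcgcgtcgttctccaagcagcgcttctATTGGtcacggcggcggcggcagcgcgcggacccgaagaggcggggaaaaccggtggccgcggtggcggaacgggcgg
Cebpa, chr7:35119043-35119342, plus strand: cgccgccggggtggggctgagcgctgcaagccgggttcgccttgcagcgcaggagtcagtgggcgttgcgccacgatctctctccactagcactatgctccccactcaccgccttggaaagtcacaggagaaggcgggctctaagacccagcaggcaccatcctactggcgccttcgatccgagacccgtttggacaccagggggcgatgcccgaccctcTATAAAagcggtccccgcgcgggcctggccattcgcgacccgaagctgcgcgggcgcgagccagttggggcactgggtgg

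The Cebpb window held 3 TGACG matches, starting at -180 on the minus strand and at -53 and -7 on the plus strand, and a TATAAA match at 22. It also held 5 matches of GGGCGG, the GC box, of which those at -238 and -234 share bases. The Cebpg window held 2 CCAAT matches, at -89 and -28 on the minus strand and 1 GGGCGG match at 45, with no TGACG, and the Cebpa window a TATAAA match at -30. Of 32851 promoters of 300 bases, 20.8% held TGACG, 37.4% CCAAT, 13.6% TATAAA and 35.7% GGGCGG. Neither TTGCGCAA, the C/EBP palindrome (0.183% of promoters), nor TTCNNNGAA, a STAT motif (8.3%), was found in the 3 windows. A match is a string of letters and no evidence of binding.

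Cebpd and Cebpb, the cytokine-responsive members, were at higher levels in glia of kainate mice than in glia of sham mice, by 7.06-fold and 5.20-fold. Cebpd was at 292.7, 165.7 and 122.2 CPM in the 3 kainate glia libraries and at 34.3 and 20.5 CPM in the 2 of sham glia. The groups did not overlap, and the lowest kainate library was above the highest sham one. The fitted log2 fold change was 2.82 ± 0.51 (SE). Cebpb was at 63.2, 37.4 and 32.6 CPM in kainate glia and at 10.7 and 6.40 CPM in sham glia, again without overlap, and its log2 fold change was 2.38 ± 0.54. In bulk nuclei, more expressing cells and more RNA in each cell cannot be told apart.

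Cebpg, the dimer partner without a strong activation domain, was at 94.9, 56.2 and 42.4 CPM in kainate glia and at 90.7 and 33.5 CPM in sham glia. These ranges overlapped almost wholly, and the log2 fold change was 0.06 ± 0.46. This value rests on single libraries: leaving out sham glia replicate 1 gave 0.97, and leaving out sham glia replicate 3 gave -0.50. Cebpa was low, at 8.47, 6.38 and 5.62 CPM against 6.26 and 2.63 CPM, with a log2 fold change of 0.62 ± 0.65 and overlapping groups. Leaving out a sham glia library moved it to 1.40 (replicate 1) or 0.11 (replicate 3). Cebpe was close to absent: 7, 2 and 10 reads were counted in kainate glia and 0 and 16 in sham glia, which includes its highest count in any library. It failed the filter on low counts, so 4 of the 5 members entered the fit.

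**Figure D1:**
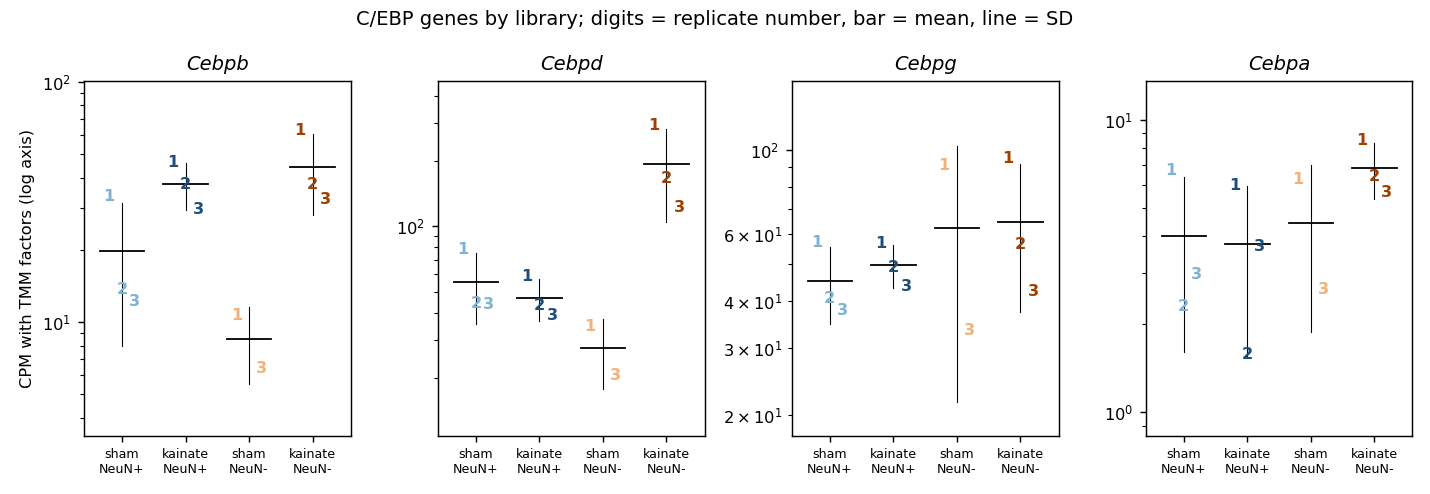
Level of 4 C/EBP genes in each library, in CPM with TMM factors on a log axis that differs between panels. Digits are replicate numbers, horizontal bars group means and vertical lines the SD (n = 3, or 2 for sham glia). The 3 kainate glia libraries of Cebpd, at 122.2 to 292.7 CPM, sit above all other libraries, while those of Cebpg overlap with sham glia.

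By edgeR's quasi-likelihood test over 40714 genes at a false discovery rate (FDR) of 0.25, Cebpd was the 1 of 4 members called in glia, beside 0.101% of all genes. Non-overlap with kainate above sham held for 2 of 4 members, and for 4.7% of all genes. Nothing is read from either count, because this contrast was behind the choice of the family. Cebpd was not called when neurons and glia were fitted separately, when either or both low-input libraries were left out, or when kainate glia replicate 1, kainate neurons replicate 2, sham neurons replicate 2 or sham neurons replicate 3 was left out. The study's own separate fits, which kept fewer genes, did call Cebpd and Cebpb in glia. Here the log2 fold change of Cebpd lay between 2.29 and 3.26 over the 11 fits without 1 library, and was 3.36 without both low-input libraries. Cebpb had a log2 fold change of 1.93 to 2.82 over those 11 fits and was called without sham neurons replicate 1. A fit without a sham glia library leaves 1 library in that group, so its spread comes from the other groups.

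Other cell types were looked at beside these values. No gene of the 8 marker lists was called between kainate and sham glia by edgeR, although 5 of 71 had an unadjusted p under 0.05 (2.05% of all genes did) and DESeq2 called 2 (0.624% of all genes). The summed level of 10 microglia markers was 849 to 2406 CPM in kainate glia and 833 to 4381 CPM in sham glia, and that of 10 astrocyte markers 792 to 4021 CPM against 1449 to 5242 CPM. The sum of 10 oligodendrocyte markers was 5294 to 29708 CPM against 9360 to 42911 CPM. The 8 markers of blood myeloid cells summed to 9.06 to 17.2 CPM in kainate glia and 8.44 to 21.2 CPM in sham glia, and none of them was at 0 in either group. The median log2 fold change in glia was -0.77 for the astrocyte, -0.74 for the microglia, -0.70 for the oligodendrocyte and -0.77 for the oligodendrocyte precursor list, whose 8 genes summed to 534 to 2262 CPM against 1387 to 4229 CPM. It was 0.12 for the neuron and 0.15 for the blood myeloid list. The 10 neuron markers summed to 875 to 1142 CPM in kainate glia and 727 to 1075 CPM in sham glia. In neurons they summed to 3936 to 7659 CPM after kainate and 4575 to 8530 CPM in sham. The part of cell composition in the Cebpd and Cebpb values was not tested. Spidr, which shares exonic bases with Cebpd, was at 15.6 to 19.99 CPM in kainate glia and 9.07 to 11.6 CPM in sham glia, and its part in the Cebpd counts was not tested.

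In neurons the family showed a different order. Cebpb was at 46.2, 37.6 and 29.5 CPM in kainate neurons and at 33.3, 13.7 and 12.2 CPM in sham neurons. Only sham replicate 1 reached into the kainate range, and the log2 fold change was 0.94 ± 0.44. Cebpd was at 58.8, 43.0 and 39.0 CPM after kainate and at 78.4, 44.3 and 43.5 CPM in sham, with overlapping groups and a log2 fold change of -0.24 ± 0.41, which was 0.10 without sham neurons replicate 1. Cebpg (43.6 to 56.6 CPM against 37.7 to 56.8 CPM) had a log2 fold change of 0.14 ± 0.41, and Cebpa (1.58 to 5.98 CPM against 2.30 to 6.71 CPM) one of -0.09 ± 0.58, which became -0.59 when kainate neurons replicate 1 was left out and 0.50 when sham neurons replicate 1 was. Cebpe had 1, 4 and 4 reads in kainate neurons and 0, 4 and 6 in sham neurons.

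None of the 4 members was called in neurons by edgeR or by DESeq2, and none had an unadjusted p under 0.05; 0.165% of all genes were called. The groups of all 4 overlapped, while for 4.26% of all genes the kainate neurons lay wholly above the sham neurons. Blocking on the replicate number gave Cebpb a log2 fold change of 1.07 ± 0.22, which passed the FDR of 0.25, as did its value of 1.30 without the 4 replicate 1 libraries. These fits called 5.09% and 2.28% of all genes. Without sham neurons replicate 1 alone it was 1.54 and did not pass. The blocked values of Cebpd, Cebpg and Cebpa did not pass. The block assumes that kainate and sham libraries are paired by number, which was not shown.

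The log2 fold change in glia minus that in neurons was 3.06 ± 0.64 for Cebpd and 1.44 ± 0.66 for Cebpb. It was 0.71 ± 0.87 for Cebpa and -0.09 ± 0.62 for Cebpg. Leaving out 1 library gave 0.12 to 1.49 for Cebpa and -0.64 to 0.83 for Cebpg, whose sign turned without sham glia replicate 1 (0.83) or kainate glia replicate 3 (0.08). In edgeR's interaction test none of the 4 members was called, with 2 at an unadjusted p under 0.05 beside 0.909% of all genes, and DESeq2 called 1, Cebpd, beside 0.0761% of all genes. The edgeR fit called 0.00246% of all genes. With the pool of mice as a block, Cebpd was called in this interaction as well, at 3.11 ± 0.34, beside 0.0221% of all genes. Blocking on the replicate number called both Cebpb and Cebpd, beside 1.94% of all genes. This contrast contains the glia values that led to the choice of the family and adds no separate support.

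**Figure D2:**
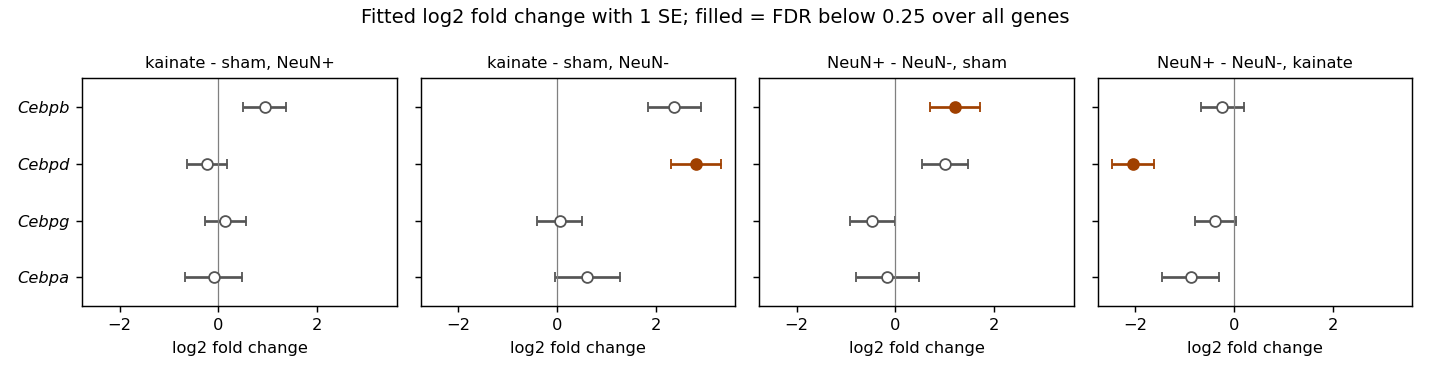
Fitted log2 fold change of 4 C/EBP genes in 4 comparisons, with bars of 1 SE. Filled points passed an FDR of 0.25 over all 40714 genes tested: Cebpd in glia, Cebpb between sham fractions and Cebpd between kainate fractions.

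The sorted fractions of one treatment were also set against each other. In sham mice Cebpb was higher in NeuN+ than in NeuN- nuclei, with a log2 fold change of 1.21 ± 0.51. The value of Cebpd was 1.01 ± 0.47. All 3 sham neuron libraries lay above both sham glia libraries for Cebpb and for Cebpd, as they did for 14.4% of all genes. Cebpb was called and Cebpd was not, and 16.7% of all genes were called. With the pool as a block both were called, Cebpb at 1.29 ± 0.29 and Cebpd at 1.14 ± 0.26, in a fit that called 34.0% of all genes. The 2 sham glia libraries also serve in the glia comparison above, so this is not independent of it. Without sham neurons replicate 1 the value of Cebpb was 0.60 and was not called. Nor was it called without kainate glia replicate 3 (0.94), kainate glia replicate 2 (1.20) or kainate neurons replicate 2 (1.21), and it was 0.88 without sham glia replicate 3. Cebpd was called when kainate glia replicate 1 (0.97) was left out, and was at 1.47 without sham glia replicate 1. Cebpg (-0.46 ± 0.46) and Cebpa (-0.16 ± 0.64) overlapped between the sham fractions, and both values turned positive without sham glia replicate 1, at 0.47 and 0.63. Cebpg was at -1.01 without sham glia replicate 3. A fit without a sham glia library leaves 1 library in that group, so its spread comes from the other groups.

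In kainate mice Cebpd was lower in NeuN+ than in NeuN- nuclei, with a log2 fold change of -2.05 ± 0.42, and the 3 neuron libraries lay below the 3 glia libraries. Such a non-overlap held for 16.4% of all genes, and 20.7% of all genes were called. Cebpd was the 1 of 4 members called, and it was also called in 24 of 24 other settings. This contrast uses the kainate glia libraries whose Cebpd values were behind the choice of the family, so nothing is read from the call or its repetition. The fractions overlapped for Cebpb, at -0.23 ± 0.43, for Cebpg (-0.38 ± 0.41) and for Cebpa (-0.87 ± 0.58). Leaving out 1 library gave -0.56 to 0.14 for Cebpb and -0.75 to 0.04 for Cebpg, and both signs turned without kainate glia replicate 1. With the pool as a block, Cebpa was called too, at -1.03 ± 0.38, in a fit that called 49.3% of all genes.

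The median log2 difference of all genes between the fractions was -0.37 in sham and -0.47 in kainate mice. It moved to -0.89 and -0.96 without TMM factors. Relative to that median, Cebpb stood 1.58 higher and Cebpd 1.39 higher in sham neurons, or 1.69 and 1.55 without TMM factors. In kainate mice Cebpd stood at -1.57 and Cebpb at 0.24 relative to the median, or -1.45 and 0.32 without TMM factors. The sign for Cebpb in kainate mice thus turned when read against all genes. Cebpg stood near the median in both treatments, at -0.09 and 0.09, and at 0.22 in both without TMM factors, which turned its sign in sham mice.

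Levels were compared between members per kilobase of exon. The length was that of all annotated exons, 1504 bases for Cebpb and 3746 for Cebpd, which includes a non-coding transcript. Cebpd had more reads than Cebpb in every library, so the place of Cebpb above Cebpd in kainate neurons depends on these lengths. In sham glia Cebpg led with 11.04 ± 7.20 CPM per kb (SD, n = 2), followed by Cebpd with 7.32 ± 2.60, Cebpb with 5.67 ± 2.01 and Cebpa with 1.69 ± 0.97. The first 3 overlapped in their ranges. In kainate glia Cebpd led with 51.7 ± 23.7 CPM per kb (SD, n = 3), before Cebpb with 29.5 ± 10.95, Cebpg with 11.5 ± 4.85 and Cebpa with 2.59 ± 0.56. Only Cebpd and Cebpb overlapped among these neighbours. In sham neurons Cebpd (14.8 ± 5.32 CPM per kb), Cebpb (13.1 ± 7.84) and Cebpg (8.00 ± 1.84) each overlapped with the next in this order. In kainate neurons Cebpb (25.1 ± 5.56 CPM per kb) lay above Cebpd (12.5 ± 2.79), and Cebpd above Cebpg (8.84 ± 1.17), each without overlap.

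Shares within a library do not depend on the scaling between libraries. They do depend on the exon lengths used, and a higher share of some members lowers that of the others. Of the summed CPM per kb of the 5 members, Cebpd made up 50.8% to 55.6% in kainate glia and 26.4% to 31.6% in sham glia. In neurons it made up 25.0% to 26.7% after kainate and 37.5% to 41.9% in sham. Cebpb made up 49.9% to 54.5% in kainate neurons, more than in any library of another group, and 29.2% to 39.7% in sham neurons. In glia its share was 29.9% to 33.7% after kainate and 20.4% to 24.6% in sham. Cebpg gave 34.4% to 46.4% of the family level in sham glia and 11.8% to 12.3% in kainate glia. Its own mean level was 62.1 CPM in sham glia and 64.5 CPM in kainate glia. Cebpa stayed at or under 6.83% in every library, and Cebpe at or under 3.69%.

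**Figure D3:**
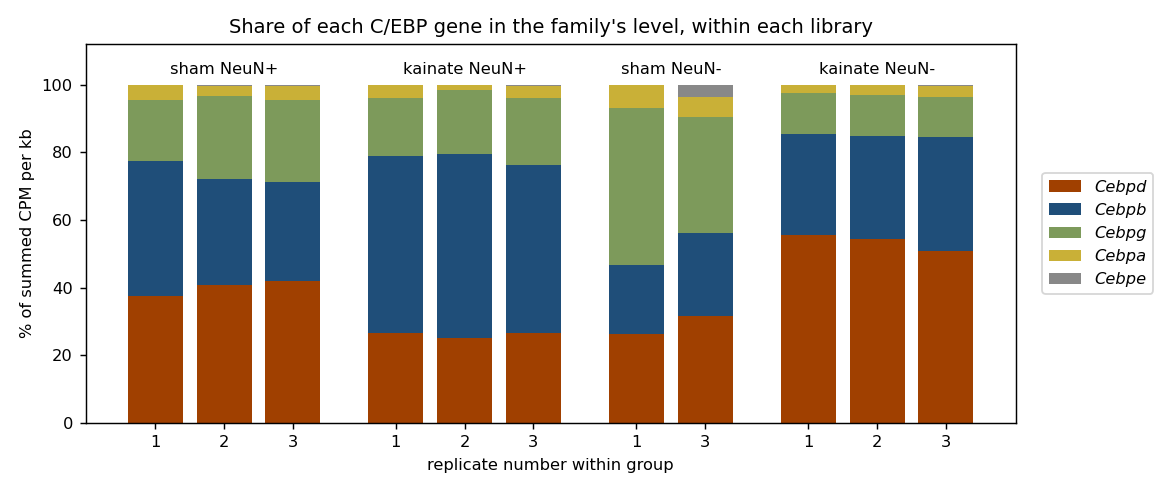
Share of each C/EBP gene in the summed CPM per kilobase of the 5 genes, in percent, with 1 bar for each library and its replicate number below. Cebpd makes up 50.8% to 55.6% in the 3 kainate glia libraries, and Cebpb 49.9% to 54.5% in the 3 kainate neuron libraries.

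Ratios of raw counts likewise need no scaling. For each Cebpg read there were 3.08, 2.95 and 2.88 Cebpd reads in kainate glia, against 0.378 and 0.613 in sham glia. In neurons the ratio was 1.04, 0.880 and 0.894 after kainate and 1.38, 1.09 and 1.15 in sham. The replicates of kainate glia thus differed little in this ratio, although their CPM of Cebpd spanned 122.2 to 292.7. Cebpd reads for each Cebpb read numbered 1.14 to 1.32 in kainate neurons and 2.35 to 4.63 in the 8 libraries of the other groups.

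Across all 11 libraries, the genes closest to Cebpd in centred log2 CPM were Slc39a14, a zinc and iron transporter, Ecm1, Hmga1b, Hmga1 and Ppp1r15a, a stress-induced phosphatase subunit. Their root mean square difference from Cebpd was 0.34 to 0.43, where the median over all genes was 1.39. Slc39a14 was at 277 to 454 CPM in kainate glia and 43.8 to 98.9 CPM in sham glia, against 116 to 132 CPM in kainate neurons and 75.2 to 117 CPM in sham neurons. Hmga1 and Hmga1b are near-identical copies, and only uniquely mapped reads were counted, so reads that match both may be missing from their counts. The genes closest to Cebpb were Ier5l, Ldha, which encodes a lactate dehydrogenase subunit, Lmna, which encodes lamin A, Jun, a bZIP factor, and Gm14928, with differences of 0.31 to 0.40. Jun was at 162 to 345 CPM in kainate glia, 41.0 to 117 CPM in sham glia, 193 to 248 CPM in kainate neurons and 83.1 to 138 CPM in sham neurons. These lists describe likeness over libraries that share their groups and scaling.

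**Figure D4:**
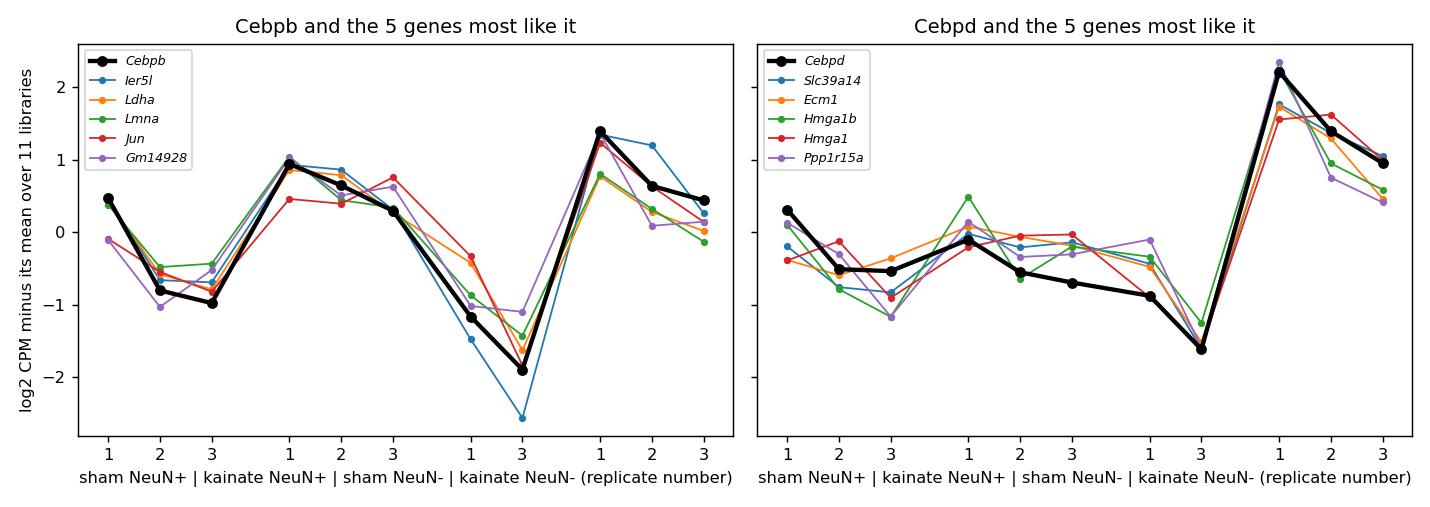
Log2 CPM minus its mean over the 11 libraries for Cebpb (left) and Cebpd (right) in black, and for the 5 genes most like each in colour, with replicate numbers below. Cebpd and the genes like it peak in kainate glia, while Cebpb and those like it are also high in kainate neurons.

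Of 80 genes in 6 lists of C/EBP partners, regulators and targets, 79 were tested. In the fit without a block, 3 of them rose in neurons after kainate and none fell, and in glia 5 rose and none fell. These are 3.8% and 6.33% of the lists, beside 0.165% and 0.101% of all genes, and the lists were written with earlier results of these libraries known. The median log2 fold change of the 79 genes was 0.18 in neurons and 0.36 in glia, beside -0.01 and 0.02 over all genes. With the replicate block 19 were called in neurons, 17 of them higher, beside 5.09% of all genes. In glia the block called 23, of which 22 were higher, beside 5.79% of all genes. In the interaction none of the 79 was called by edgeR, 9 had an unadjusted p under 0.05 (0.909% of all genes did), and DESeq2 called 2 (0.0761% of all genes).

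Of the 10 bZIP dimer partners, Atf3 and Fos rose in both fractions in the fit of all 11 libraries without a block. Atf3, a stress-induced repressor, was at 23.0 to 76.9 CPM in kainate glia and 2.56 to 2.68 CPM in sham glia (log2 fold change 4.03 ± 0.63, FDR 0.0763 by edgeR). In neurons it was at 8.06 to 16.7 CPM after kainate and 0.873 to 1.58 CPM in sham (3.41 ± 0.52, FDR 0.0566 by edgeR). Fos, the immediate-early partner of Jun, was at 102 to 419 CPM in kainate glia and 4.07 to 5.05 CPM in sham glia (5.67 ± 0.80, FDR 0.0763 by edgeR). In neurons Fos was at 55.8 to 148 CPM after kainate and 7.96 to 21.9 CPM in sham (3.09 ± 0.59, FDR 0.150 by edgeR). Ddit3, which encodes CHOP and blocks C/EBP binding as a dimer partner, had values of 0.01 ± 0.61 in glia and 0.27 ± 0.54 in neurons, with overlapping groups. With the replicate block, which called 5.09% of all genes in neurons, 5 partners were called higher there: Atf3, Fos, Batf3 (1.49 ± 0.37), Jun (1.02 ± 0.19) and Atf4 (0.71 ± 0.19), of which Batf3 and Atf4 are named here after their values were seen. DESeq2 also called Batf3 in neurons and Jun in glia. The median of the list was 0.40 in glia and 0.60 in neurons.

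Among 18 acute-phase and inflammatory genes known as targets of C/EBP beta or delta, 3 rose in glia. Serpina3n, an acute-phase protease inhibitor of reactive astrocytes, was at 389 to 1161 CPM in kainate glia and 18.4 to 57.6 CPM in sham glia (log2 fold change 4.28 ± 0.74, FDR 0.115 by edgeR). Ptx3, a soluble pattern recognition protein, was at 31.6 to 176 CPM against 2.08 to 3.64 CPM (4.97 ± 0.89, FDR 0.142 by edgeR). Ccl2, a chemokine that draws monocytes, was at 15.6 to 31.7 CPM against 1.98 to 3.42 CPM (3.08 ± 0.55, FDR 0.142 by edgeR). In neurons Ptx3 was the 1 gene of this list called in that fit (3.56 ± 0.72, FDR 0.180 by edgeR). The neuron values of Serpina3n and Ccl2, 2.11 ± 0.57 and -0.02 ± 0.44, did not pass. With the replicate block (5.09% of all genes called) 5 genes of the list were called higher in neurons: Ptx3, Serpina3n (2.17 ± 0.22), Ptgs2 (2.41 ± 0.23), Tnfaip6 (1.39 ± 0.21) and Cd14 (0.83 ± 0.30), the last 3 named here after their values were seen. DESeq2 called Ptx3, Serpina3n and Ptgs2 there. The list median was 0.64 in glia and 0.10 in neurons.

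Of 12 regulators of C/EBP proteins none was called in either fraction by the edgeR fit of all 11 libraries without a block. Trib1, a Tribbles pseudokinase that directs C/EBP alpha to degradation, was at 75.4 to 192 CPM in kainate glia and 13.7 to 48.8 CPM in sham glia (log2 fold change 2.10 ± 0.57, FDR 0.890 by edgeR). In neurons it was at 22.7 to 37.7 CPM against 6.09 to 9.06 CPM (1.95 ± 0.49, FDR 0.404 by edgeR), and neither pair of groups overlapped. Trib2, which acts in the same way, was at 76.3 to 150 CPM in kainate neurons and 19.6 to 46.5 CPM in sham neurons (1.82 ± 0.49, FDR 0.575 by edgeR), and overlapped in glia (-0.16 ± 0.53). With the replicate block, which called 5.09% of all genes in neurons, Trib1 (1.93 ± 0.20) and Trib2 (1.84 ± 0.22) were called there. In that fit 3 genes of the list were called higher and 1 lower. Over 24 other settings, which include this block and DESeq2, Trib1 was called in 10 in neurons and 4 in glia, and Trib2 in 7 in neurons and 0 in glia. The most abundant members of this list in glia were Crebbp and Ep300, coactivators of C/EBP proteins.

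Of 18 upstream signals none was called by the edgeR fit of all 11 libraries without a block. DESeq2 called 2 in glia, beside 0.624% of all genes. These were the cytokine receptors Il1r1 (1.61 ± 0.46) and Osmr (1.95 ± 0.59), named here after their values were seen. Stat3, the factor through which interleukin 6 type cytokines induce Cebpd, was among the 2 most abundant in both fractions over kainate and sham together. It was at 202 to 570 CPM in kainate glia and 61.0 to 175 CPM in sham glia, with a log2 fold change of 1.70 ± 0.59. In neurons it was at 136 to 163 CPM against 36.7 to 92.4 CPM, with a log2 fold change of 1.39 ± 0.50. The groups did not overlap in either fraction, and neither value passed the FDR. With the replicate block, which called 5.09% of all genes in neurons, Stat3 was 1.51 ± 0.19 there and passed, and 3 upstream signals were called higher. In glia the block called 8 upstream signals higher, beside 5.79% of all genes. Of 12 myeloid targets, with Csf1r and Csf2ra the most abundant, and 9 tested metabolic targets, with Lpl and Scd1, none was called in either fraction. With the replicate block Csf1r was called higher in neurons (1.12 ± 0.19) and Lpl lower (-0.55 ± 0.20). In glia the block called Csf3r lower (-0.88 ± 0.26), and Lep (1.13 ± 0.43) and Lpl (1.02 ± 0.25) higher. Csf3r and Lep are named here after their values were seen. The median log2 fold changes of the myeloid and metabolic lists were 0.09 and 0.36 in glia and 0.04 and -0.06 in neurons.

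The list counts changed with the libraries used. The glia count of 5 was 0 without sham glia replicate 1, 2 without kainate glia replicate 1 or 2, and 19 without sham glia replicate 3. The genes called in glia over the whole table moved with it, from 41 to 1 without sham glia replicate 1, 16 and 5 without kainate glia replicates 1 and 2, and 2812 (6.59%) without sham glia replicate 3. The glia list count was 0 when the fractions were fitted separately, a fit that called no gene of the whole table in glia. The study's own separate fits, after a filter that kept fewer genes, did call genes in glia. The neuron count of 3 was 19 with the replicate block, 17 of them higher and 2 lower, 0 without sham neurons replicate 2 or 3, and 1 when kainate glia replicate 2 or either of the first 2 kainate neuron replicates was left out. It was 7 without either sham glia library. The genes called in neurons over the whole table moved from 67 to 2072 with the block, to 5 without sham neurons replicate 2 or 3, to 32, 13 and 25 in the fits with a list count of 1, and to 169 or 176 without a sham glia library.

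**Figure D5:**
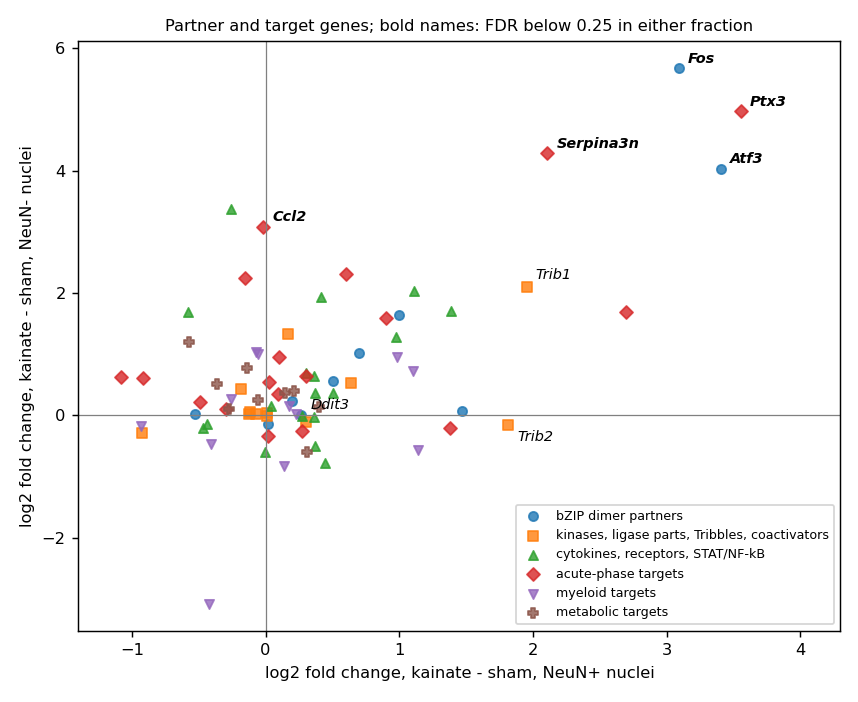
Log2 fold change of 79 partner and target genes after kainate, in NeuN+ nuclei (x axis) and NeuN- nuclei (y axis), with 1 point for each gene and a shape for each list. Bold names passed an FDR of 0.25 in at least 1 fraction: Fos, Ptx3, Atf3, Serpina3n and Ccl2, with Trib1, Trib2 and Ddit3 named beside them.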

How the data were processed

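Nuclei were sorted from pooled hippocampi and their mRNA was amplified with the SMART-Seq v4 kit. The authors trimmed reads with Trim Galore 0.4.3, aligned them with Rsubread to mm10, and counted uniquely mapped reads per gene with featureCounts on GENCODE M16. The deposited values are raw counts, 1 column for each of 11 libraries. The 11 bisulfite samples were not analysed here.

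Genes without a symbol (105 of 53379) were dropped. The remaining counts were filtered with filterByExpr (minimum count 10, minimum total 15), which left 40714 genes, scaled by TMM, and fitted as 4 group means over 11 libraries in edgeR 4.0.16 (R 4.3.3) with the quasi-likelihood test and Benjamini-Hochberg adjustment. The study fitted the fractions separately, after a filter that kept fewer genes. Here 1 model was used because sham glia had 2 libraries. A gene was called at an FDR below 0.25. CPM in the text carry TMM factors. DESeq2 1.42.0 was an alternative. The members and lists were chosen with earlier results of these data known.

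Named genes were the 5 members, list genes called in a comparison of kainate with sham or else the 2 most abundant of a list, Ddit3, Trib1 and Trib2, and the 5 genes most like Cebpb and Cebpd (smallest root mean square difference of centred log2 CPM, prior count 2). Jun was named by likeness. An item that this rule would name is not reported here.

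NeuN+ and NeuN- libraries of a number come from 1 pool. The replicate block takes kainate and sham libraries of a number as paired, which the study does not state. Deviations of such libraries from their group means correlated at 0.643, 0.161 and 0.491 in neurons. The 2 such pairs in glia gave 0.760 and 0.787. Libraries of unlike numbers were not compared, so these values cannot show a pairing. Pools of mice were the replicates. The p-values of the main fit measure the spread between libraries within groups, by an estimate shared by both fractions. They treat the NeuN+ and NeuN- libraries of a pool as independent, unlike the fits with the pool as a block. Cebpe had 0 to 16 reads a library, which limits its precision. For Cebpa, at 53 to 200 reads a library, the source of the spread was not tested.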

Additional observations from a re-analysis of the deposited data

How the results depend on the processing

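Over 24 other settings, the log2 fold change of Cebpd in glia stayed between 2.29 and 3.36 (called in 14) and that of Cebpb between 1.93 and 2.93 (called in 7). Neither sign turned in these 24. With 2 or 3 pools in a group, the calls rest on few libraries. Cebpe entered the fit in 4 of these settings, on 0 to 16 reads a library. Between sham fractions it was at -2.74 without sham glia replicate 1, where sham glia had 1 library.

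Members called in glia numbered 2 with DESeq2 (0.624% of all genes called), a CPM minimum (0.229%), the replicate block (5.79%) and without TMM factors (0.636%). The main fit called 0.101% of all genes. Members called numbered 0 with separate fits (0%), at an FDR below 0.05 (0.00246%) and with low input as a covariate (0.054%). Fits without both low-input libraries or without the 4 replicate 1 libraries leave 1 library in sham glia. Leaving out 1 library gave 0 to 2. In neurons 1 member was called with the replicate block and without replicate 1. Between sham fractions 0 were called with DESeq2 size factors (16.6% of all genes called), without a filter (11.2%), at an FDR below 0.05 (8.87%) and with low input as a covariate (14.2%). With DESeq2 (21.1%), a CPM minimum (28%), the newer quasi-likelihood method (21.2%) and the pool block (34%) 2 were called. The number block (34.3%) and the scaling without TMM factors (19.7%) gave 3, beside 16.7% of all genes in the main fit. Between kainate fractions 2 were called with the newer method (41.1% of all genes called), the number block (35.4%) and the pool block (49.3%). Without TMM factors 4 were called (23.8%), beside 20.7% of all genes in the main fit. In the interaction 1 was called with DESeq2 (0.0761% of all genes called), the pool block (0.0221%) and without TMM factors (0.0123%). The number block called 2, Cebpb and Cebpd (1.94%), beside 0.00246% of all genes in the main fit. The numbers were not shown to pair in either fraction. In glia the replicate block gave 2.83 ± 0.24 for Cebpd and 2.46 ± 0.28 for Cebpb, and called Lpl higher there (1.02 ± 0.25). In these blocked fits an unpaired library (kainate glia replicate 2 by number, sham neurons replicate 2 by pool) is fitted by its own term. In neurons the block moved the genes called from 67 to 2072, and leaving out replicate 1 to 1026.

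List genes called in neurons numbered 8 with DESeq2 and separate fits, 5 with a CPM minimum and without both low-input libraries, 0 at an FDR below 0.05, 19 with the replicate block, 1 with low input as a covariate, 7 without TMM factors and 13 without replicate 1 (0 to 7 over left-out libraries). In glia they numbered 9 with DESeq2 and without TMM factors, 0 with separate fits, at an FDR below 0.05 and without both low-input libraries, 23 with the replicate block and 13 without replicate 1 (0 to 19 over left-out libraries), where the whole table had 2357 and 488 calls, against 41. Values near 0 changed sign. Ddit3 in glia was -0.0818 with DESeq2 size factors, -0.0811 with DESeq2, -0.0204 without a filter, -0.0163 with the newer method, and -0.96 to 0.91 over left-out libraries, and in neurons -0.00734 to 0.53. Trib2 in glia was 0.78 without both low-input libraries, 0.11 with low input as a covariate, 0.44 without replicate 1 and -0.72 to 0.79 over left-out libraries. Ccl2 in neurons was -0.27 to 0.22. The cause was not tested. Without TMM factors the calls that were higher in NeuN+ nuclei were 39.4% in sham and 34.9% in kainate mice, against 54.4% and 54.7%. Higher calls after kainate were 82.5% in neurons and 80.3% in glia without TMM factors, against 95.5% and 92.7%. The scaling without TMM factors and the fit without the replicate 1 libraries were chosen after seeing the data.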

Other observations

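Cebpz and Cebpzos carry similar symbols without being bZIP C/EBP factors. Cebpz, a ribosome biogenesis factor, was at 31.8 to 73.2 CPM in kainate glia and 25.7 to 62.4 CPM in sham glia, with a log2 fold change of 0.26 ± 0.53. In neurons it was at 33.1 to 72.8 CPM against 37.9 to 85.2 CPM, with a log2 fold change of -0.06 ± 0.47. Cebpzos had values of -0.59 ± 0.65 in glia and -0.06 ± 0.59 in neurons. Neither gene was called, and the groups overlapped in both fractions.

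Tmem189, whose exons overlap those of Cebpb, was at 48.6 to 212 CPM in kainate glia and 43.4 to 220 CPM in sham glia, with a log2 fold change of -0.24 ± 0.68. Its neuron value was 0.12 ± 0.61.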
